A study of Mus musculus with 10 samples.

Results

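Ube2o, Ube2h, Ube2l6, Trim58, Fbxo7 and Ubb, 6 genes of ubiquitin remodelling in maturing red cells, were followed in bone marrow erythroid progenitors. They were taken by gene symbol from the table of raw counts, where all 6 were found among 24421 genes, and all 6 were among the 11846 genes that passed the filter on low counts. The cells were sorted as CD71+Ter119+ (R2), a gate that combines the transferrin receptor with an erythroid surface antigen, from 10 recipient mice with 1 library each. BoyJ recipients had received 1000000 marrow mononuclear cells from Rosa-CreERT2 donors, whose tamoxifen-activated Cre is driven from the broadly active Rosa locus, and marrow was collected 8 weeks after transplant. Tamoxifen, 1 mg per injection, was given in 2 rounds of 5 days. The groups were Ddx41+/+ Trp53+/+ (3 mice, replicates 10, 11 and 12), Ddx41+/- Trp53+/+ (2 mice, 32 and 34), Ddx41+/+ Trp53+/- (3 mice, 22, 23 and 24) and Ddx41+/- Trp53+/- (2 mice, 46 and 47). The grafts of the Ddx41+/- mice carried 1 floxed Ddx41 allele for deletion by Cre. Trp53+/- is labelled as a genotype with no further detail. For Trp53 loss, the paper of these data names a knockout strain from Jackson, bred to its floxed Rosa-CreERT2 mice. The labels name no marker that separates grafted cells from what remained of the host's. The ages of donors and recipients were not given in the sources used here.

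Ubiquitin is a small protein that is attached to other proteins by a relay of enzymes: an E1 activates it, an E2 conjugating enzyme carries it, and an E3 ligase chooses the substrate, which is often then degraded by the proteasome. Red cell precursors discard their nucleus, organelles and most proteins other than haemoglobin, and several ubiquitin enzymes are induced as they do so. Ube2o, which combines E2 and E3 activity, marks ribosomal proteins and unpaired globin for degradation, and Ube2h is an E2 that works with the multi-subunit CTLH ligase. Ube2l6 is an E2 used mainly for ISG15, an interferon-induced ubiquitin-like protein. Trim58 is an erythroid E3 ligase that acts on the motor protein dynein, Fbxo7 is an F-box protein that brings substrates to SCF ligases and also binds a proteasome regulator, and Ubb is a polyubiquitin gene that supplies ubiquitin itself.

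The sequence of Ubb is shown because it bears on how its reads could be counted. Its coding sequence, the longest open reading frame of the GENCODE M21 transcript, is 918 bases long and holds 4 copies of the 228-base ubiquitin unit in a row. The first 60 bases of each copy follow, with capitals where a base differs from the first copy.
Ubb repeat 1: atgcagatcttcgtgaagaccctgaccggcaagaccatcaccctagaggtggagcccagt
Ubb repeat 2: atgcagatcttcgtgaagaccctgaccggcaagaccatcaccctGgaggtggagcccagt
Ubb repeat 3: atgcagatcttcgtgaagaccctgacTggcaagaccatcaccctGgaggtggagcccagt
Ubb repeat 4: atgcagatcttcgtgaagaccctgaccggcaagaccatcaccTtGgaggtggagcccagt
Over their full length, copies 2, 3 and 4 were 97.8%, 99.1% and 95.6% identical to the first. Of the 75-base stretches of the Ubb transcript, 56.8% also occurred in transcripts of the genes Gm1821 and Gm8797, so the Ubb count is uncertain where reads could be split between them. The shared percentage was 7.35% for Ube2h (with Gm2058), 0.606% for Ube2l6 and 0% for Ube2o, Trim58 and Fbxo7.

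3 of the 6 genes lie on chromosome 11, the chromosome of Trp53 (GRCm38, GENCODE M21). Trim58 is at chr11:58640465-58652404 on the plus strand, 10.9 Mb before the start of Trp53. Ubb is at chr11:62551171-62553213 on the plus strand, 7.03 Mb before it, and Ube2o is at chr11:116537740-116581447 on the minus strand, 47 Mb after it. Ube2h is at chr6:30211289-30304539 (minus strand), Ube2l6 at chr2:84798828-84810335 (plus strand) and Fbxo7 at chr10:86021972-86051873 (plus strand). Within its exons, Fbxo7 shares 314 bases (5.68%) with the antisense gene A230060F14Rik. The strand setting used for counting was not given in the sources used here, so reads of these bases cannot be told apart.

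Promoter windows, the 250 bases before the gene's start in RefSeq (GRCm38.p6), were at hand for 5 of the 6 genes, all but Ube2o. Those of Ube2h, Ube2l6 and Fbxo7 follow. Over the 10 libraries Ube2h and Ube2l6 had a correlation of 0.85, which was 0.53 without replicate 11 of Ddx41+/+ Trp53+/+. The correlation of Fbxo7 with both was close to 0 over the 10 libraries. Within genotypes it was -0.46 with Ube2h and -0.56 with Ube2l6. Capitals mark, on either strand, CACCC boxes (CACCC), E-boxes (CANNTG) and the cAMP response element TGACGTCA.
Ube2h (chr6:30304540-30304789, minus strand): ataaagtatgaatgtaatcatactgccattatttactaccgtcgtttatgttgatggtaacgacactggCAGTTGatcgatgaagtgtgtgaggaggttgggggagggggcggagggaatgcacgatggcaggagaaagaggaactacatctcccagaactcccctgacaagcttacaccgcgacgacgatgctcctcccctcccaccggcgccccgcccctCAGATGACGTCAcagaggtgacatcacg
Ube2l6 (chr2:84798578-84798827, plus strand): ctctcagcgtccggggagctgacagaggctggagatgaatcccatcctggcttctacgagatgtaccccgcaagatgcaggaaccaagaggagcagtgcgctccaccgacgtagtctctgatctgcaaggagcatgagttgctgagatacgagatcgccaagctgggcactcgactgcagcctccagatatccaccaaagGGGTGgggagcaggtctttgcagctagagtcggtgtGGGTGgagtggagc
Fbxo7 (chr10:86021679-86021928, plus strand): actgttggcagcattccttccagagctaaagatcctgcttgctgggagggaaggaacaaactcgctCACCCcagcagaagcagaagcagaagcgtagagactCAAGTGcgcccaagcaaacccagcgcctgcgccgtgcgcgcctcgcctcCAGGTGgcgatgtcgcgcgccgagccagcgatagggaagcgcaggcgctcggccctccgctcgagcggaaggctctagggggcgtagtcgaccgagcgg
The Ube2h window held 2 E-boxes, of which the second overlaps the cAMP response element by its last bases. Ube2l6 held 2 CACCC boxes, and Fbxo7 held 1 CACCC box and 2 E-boxes. Of 32851 RefSeq windows of this length, 52% held a CACCC box, 66.2% an E-box and 1.55% the cAMP response element, which was searched for after the windows had been read. Of the erythroid GATA motifs only AGATAA and TGATAA were searched for, present in 9.99% and 7.94% of all windows. Neither these nor the interferon-stimulated response element, present in 2.98%, were in any of the 5 windows. The Trim58 window, not shown, holds the related form AGATAG, whose frequency over all windows was not counted. A match describes letters only, and a missing match says nothing about a factor.

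The libraries held 7866648 to 20283930 counts. Ddx41 stood at 21.9 to 26.6 CPM (counts scaled to 1000000 per library with the trimmed mean of M values) in the 6 Ddx41+/+ mice and at 12.5 to 16.5 CPM in the 4 Ddx41+/- mice, and Trp53 at 57.4 to 68.1 CPM in the 5 Trp53+/+ mice and 40.3 to 46.2 CPM in the 5 Trp53+/- mice, so neither went against a label. Tfrc, which encodes the gate's marker CD71, was at 2692 to 3458 CPM. The adult globin genes, the defining product of these cells, were nearly absent from the table: Hbb-bt was at 0 counts in every library, Hbb-bs at 0 to 17 and Hba-a1 at 1 to 21. How this came about was not tested. The 10 neutrophil markers summed to 4949 to 8484 CPM and the early erythroid markers to 22.7 to 52.2 CPM, against 81865 to 92941 CPM for the late erythroid markers. In bulk samples, fewer cells of a type and less RNA per cell cannot be told apart.

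The 6 genes were among the well-expressed genes of R2 cells and together took 0.4% to 0.487% of each library. Per kilobase of exon, the scale on which genes can be compared, Ube2l6 had the highest level, with a mean over the 10 mice of 1018 CPM per kb and a rank of 31 among 11759 tested genes with a known length. Ube2o followed at 335 CPM per kb (rank 182), Ubb at 152 (rank 409), Ube2h at 112 (rank 573), Trim58 at 103 (rank 619) and Fbxo7 at 48.3 (rank 1335). Each neighbour in this order was separated in all 10 mice except for Ube2h and Trim58, whose ranges overlapped and of which Ube2h was higher in 8 of 10 mice. The level of Ubb carries the uncertainty of its shared sequence, and lengths cover all annotated exons, not only those used in these cells.

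Among the E2 enzymes, Ube2l6 was highest in every mouse. Of 36 E2 genes in the table, 32 passed the filter, and Ube2l6 held 30.8% to 34.6% of the summed E2 level per kb. Ube2s and Ube2c, E2 enzymes of the mitotic anaphase-promoting complex, ranked next with medians of 448 and 362 CPM per kb. Ube2o ranked 4 with a median of 337 CPM per kb and Ube2h ranked 6 with 112 CPM per kb, next to Ube2r2 at 125 and Ube2b at 107. Ube2o, Ube2h and Ube2l6 together made up 43.5% to 50% of the family's summed level, while the median of the other E2 genes was 17.4 CPM per kb. Their joint percentage was 46.9 ± 3.27 (SD, n = 3) in Ddx41+/+ Trp53+/+, 47.3 ± 0.522 (n = 2) in Ddx41+/- Trp53+/+, 47.2 ± 1.15 (n = 3) in Ddx41+/+ Trp53+/- and 48.2 ± 0.597 (n = 2) in Ddx41+/- Trp53+/-. The means of the 4 genotypes lay within the spread of the Ddx41+/+ Trp53+/+ mice.

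**Figure D1:**
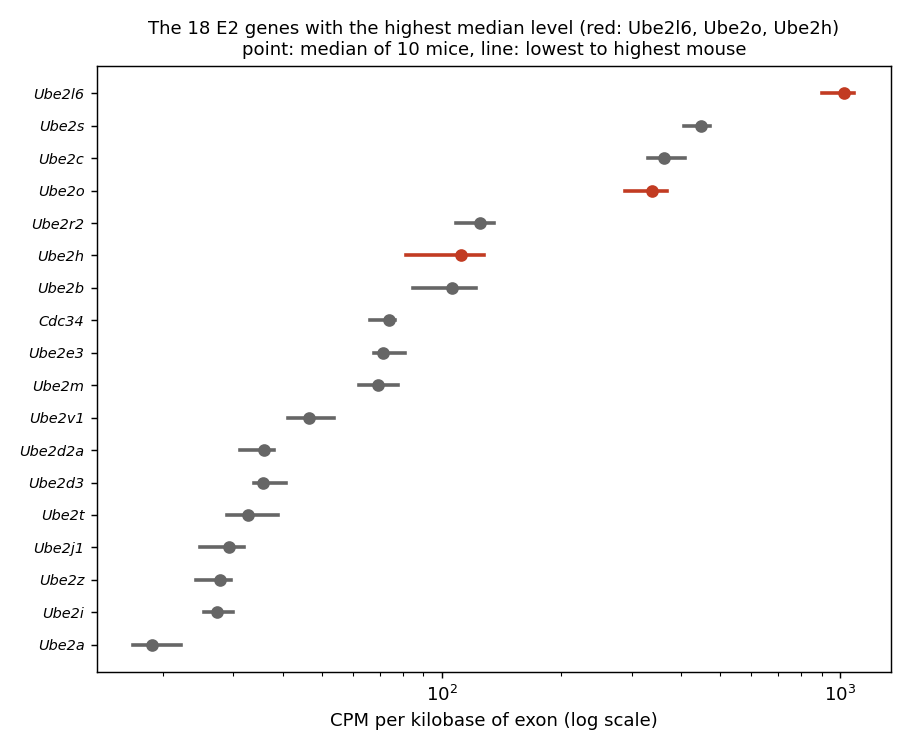
Levels of the 18 highest E2 genes on a log axis of CPM per kilobase of exon, with the median of 10 mice as a point and the lowest and highest mouse as the ends of a line. Ube2l6 stands alone at a median of 1025, and Ube2o and Ube2h (red) lie among the 6 highest genes.

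Ube2o was at 1789, 1503 and 1918 CPM in the Ddx41+/+ Trp53+/+ replicates 10, 11 and 12, and at 1712 and 1829 CPM in the Ddx41+/- Trp53+/+ replicates 32 and 34. It was at 1689, 1833 and 1804 CPM in the Ddx41+/+ Trp53+/- replicates 22, 23 and 24, and at 1642 and 1719 CPM in the Ddx41+/- Trp53+/- replicates 46 and 47. Both the lowest and the highest mouse were Ddx41+/+ Trp53+/+, so the other genotypes lay inside the range of the wild-type mice.

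Ube2h, the E2 of the CTLH ligase, had the widest range of the 6 genes. In the same order of replicates it was at 522, 380 and 596 CPM in Ddx41+/+ Trp53+/+, 508 and 521 CPM in Ddx41+/- Trp53+/+, 490, 548 and 579 CPM in Ddx41+/+ Trp53+/-, and 513 and 543 CPM in Ddx41+/- Trp53+/-. Its highest mouse exceeded its lowest by 1.57-fold, and again both were Ddx41+/+ Trp53+/+, replicates 12 and 11.

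Ube2l6, the E2 for ISG15, was at 1578, 1406 and 1668 CPM in Ddx41+/+ Trp53+/+, 1528 and 1595 CPM in Ddx41+/- Trp53+/+, 1612, 1544 and 1698 CPM in Ddx41+/+ Trp53+/-, and 1650 and 1605 CPM in Ddx41+/- Trp53+/-. Within Ddx41+/- the Trp53+/- mice were above the Trp53+/+ mice, and all other pairs of genotypes that differ by 1 gene overlapped.

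Trim58, the ligase for dynein, was at 223, 195 and 231 CPM in Ddx41+/+ Trp53+/+, 217 and 214 CPM in Ddx41+/- Trp53+/+, 213, 273 and 223 CPM in Ddx41+/+ Trp53+/-, and 238 and 224 CPM in Ddx41+/- Trp53+/-. Replicate 23 of Ddx41+/+ Trp53+/- stood above all other mice. In the Ddx41+/- mice the Trp53 genotypes did not overlap.

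Fbxo7, the F-box subunit, was at 264, 265 and 245 CPM in Ddx41+/+ Trp53+/+ and at 288, 284 and 275 CPM in Ddx41+/+ Trp53+/-, so the Trp53+/- mice were all above the Trp53+/+ mice. It was at 254 and 263 CPM in Ddx41+/- Trp53+/+ and at 255 and 280 CPM in Ddx41+/- Trp53+/-, which overlapped. Fbxo7 had the smallest range of the 6 genes, 1.18-fold between its highest and lowest mouse.

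Ubb, the ubiquitin gene, was at 244, 197 and 259 CPM in Ddx41+/+ Trp53+/+, 219 and 202 CPM in Ddx41+/- Trp53+/+, 234, 240 and 233 CPM in Ddx41+/+ Trp53+/-, and 224 and 222 CPM in Ddx41+/- Trp53+/-. With Trp53+/- the Ddx41+/- mice were below the Ddx41+/+ mice, and with Trp53+/+ the genotypes overlapped through replicate 11.

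**Figure D2:**
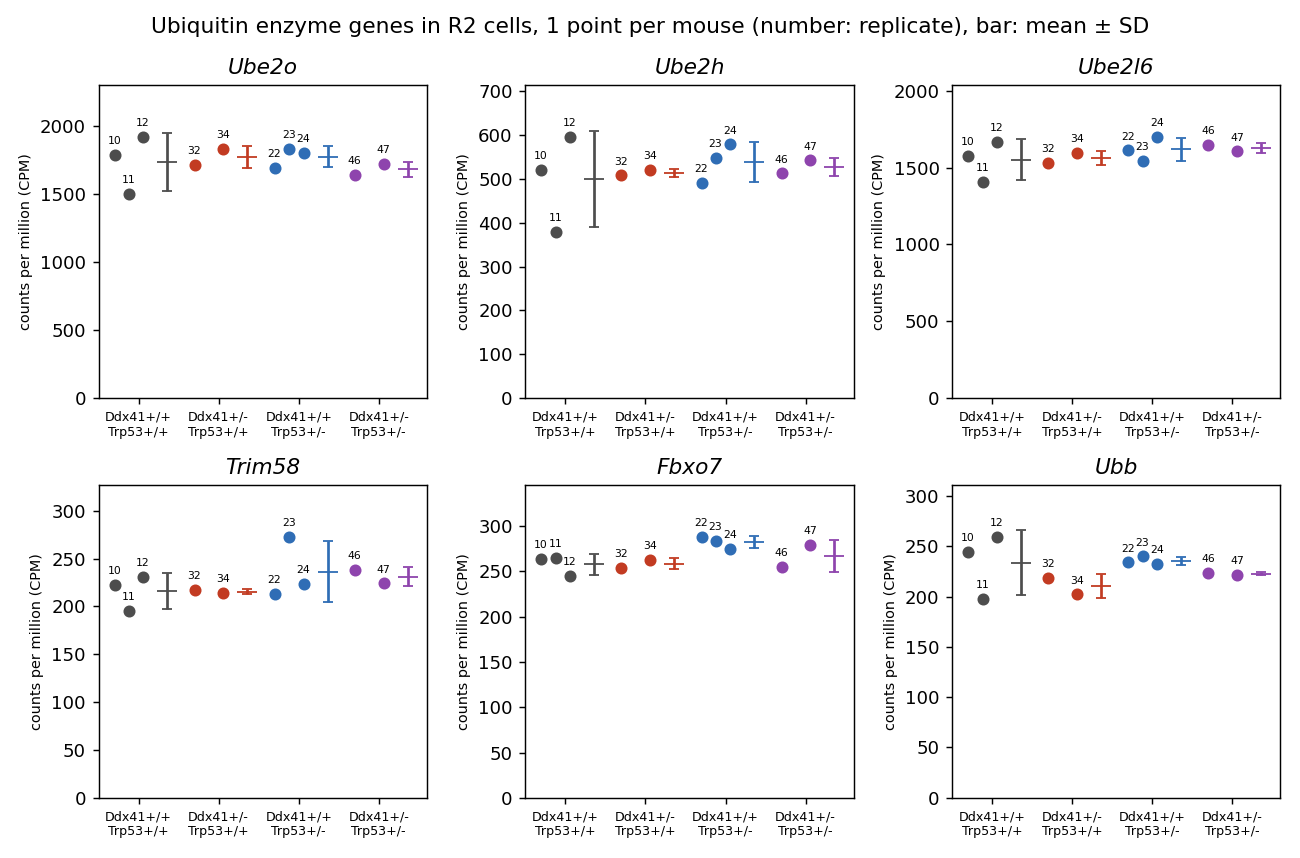
CPM of each gene by genotype, 1 point per mouse with its replicate number, and the mean ± SD beside the points (n = 3, 2, 3 and 2 mice from left to right). Replicate 11 of Ddx41+/+ Trp53+/+ is the lowest point in 5 of the 6 panels, the exception being Fbxo7, where replicate 12 is lowest at 245 CPM.

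Loss of 1 Ddx41 allele was asked about first in mice with intact Trp53. No change was detected in the 6 genes: 0 of 6 were called, which asked for a change of more than 1.5-fold with an adjusted p under 0.05 by edgeR's quasi-likelihood test, against 0.54% of all tested genes. Ubb differed most, by a log2 fold change of -0.15 (SE 0.10, edgeR adjusted p = 0.680), and its mean was 211 ± 11.8 CPM (SD, n = 2) against 234 ± 32.3 CPM (n = 3). The other 5 genes lay between -0.0035 and 0.04 on the log2 scale, and the median of the 6 was 0.0068 against 0.0010 over all tested genes. The groups overlapped for all 6 genes, where 24.9% of tested genes did not overlap.

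With Trp53+/-, loss of 1 Ddx41 allele likewise left 0 of 6 genes called, against 0.0422% of all tested genes. Ubb was again the lowest, at 223 ± 1.62 CPM (SD, n = 2) against 235 ± 3.93 CPM (n = 3), a log2 fold change of -0.08 (SE 0.10, edgeR adjusted p = 1.00). Fbxo7 and Ube2o also had log2 fold changes of -0.08. Ubb alone did not overlap between the groups, 1 of 6 genes, where 20.0% of tested genes did not overlap. The median log2 fold change was -0.06 for the 6 genes and -0.0050 over all tested genes.

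Loss of 1 Trp53 allele with Ddx41+/+ gave positive log2 fold changes for all 6 genes, from 0.01 for Ubb to 0.13 for Fbxo7 and Trim58, with a median of 0.09 against 0.00049 over all tested genes. None was called, against 0.912% of all tested genes. Fbxo7 came nearest, at 282 ± 6.83 CPM (SD, n = 3) against 258 ± 11.2 CPM (n = 3). Its log2 fold change was 0.13 (SE 0.06, edgeR adjusted p = 0.554). It was the only gene of the 6 without overlap, where 14.1% of tested genes did not overlap. Summed late erythroid markers were at 90199 to 92941 CPM in these Trp53+/- mice and 81865 to 91684 CPM in the Trp53+/+ mice, and 20 of 21 tested late markers had positive log2 fold changes with a median of 0.07. Early erythroid markers summed to 46.2 to 52.2 CPM against 22.7 to 37.7 CPM. Markers of other cells moved in the same comparison: the 9 tested B cell markers all had positive log2 fold changes, 6 of them called, with a median of 1.25 and summed levels of 376 to 459 CPM against 210 to 354 CPM. The 10 macrophage markers all had negative log2 fold changes with none called, at a median of -0.66 and summed levels of 231 to 320 CPM against 293 to 548 CPM. The part of these cells in the values of the 6 genes was not tested. With the late marker mean as a covariate, the log2 fold change of Fbxo7 was 0.18, and those of Ube2o, Ube2h and Ubb were negative, at -0.03, -0.05 and -0.10.

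With Ddx41+/-, loss of 1 Trp53 allele gave 5 positive log2 fold changes and 1 negative, from -0.08 for Ube2o to 0.10 for Trim58, and 0 of 6 genes were called against 0.169% of all tested genes. Ube2l6, Trim58 and Ubb were above without overlap, 3 of 6, but with 2 mice against 2 the groups of 37.3% of all tested genes did not overlap. The comparisons of either gene's loss share the Ddx41+/+ Trp53+/+ mice or another group with each other, so their values are not independent.

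The effect of Ddx41 did not differ detectably between the Trp53 genotypes for any member. The difference of the effects ran from -0.11 for Ube2o to 0.07 for Ubb on the log2 scale, with 0 of 6 genes called against 0.0675% of all tested genes. Averaged over the Trp53 genotypes, the Ddx41+/- mice gave 0 of 6 calls against 0.329%, with Ubb lowest at -0.11 (SE 0.07, edgeR adjusted p = 0.643). Averaged over the Ddx41 genotypes, the Trp53+/- mice gave 0 of 6 calls against 0.439%, with Trim58 highest at 0.12 (SE 0.07, edgeR adjusted p = 0.603).

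These data also bound the changes that remain possible. In the 4 comparisons of single genotypes the 95% intervals of the 6 genes ran from a fold of 0.783 (Ubb, Ddx41+/- against Ddx41+/+ with Trp53+/+) to 1.28 (Ube2h, Trp53+/- against Trp53+/+ with Ddx41+/+), and no interval reached a fold of 1.5 in either direction. Over all 42 tests of a member, 0 had an unadjusted p under 0.05 with edgeR and 0 with DESeq2. The fitted coefficient of variation between mice was 6.41% for Fbxo7, 6.79% for Ube2l6, 7.57% for Ube2o, 8.02% for Ubb, 8.35% for Trim58 and 10.5% for Ube2h, against a median of 13.4% over tested genes. Counts per library were 1592 at the least (Ubb) and 33923 at the most (Ube2o), so mice rather than depth limited the precision. Whether the same-genotype mice shared donors or sorting days was not given in the sources used here.

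**Figure D3:**
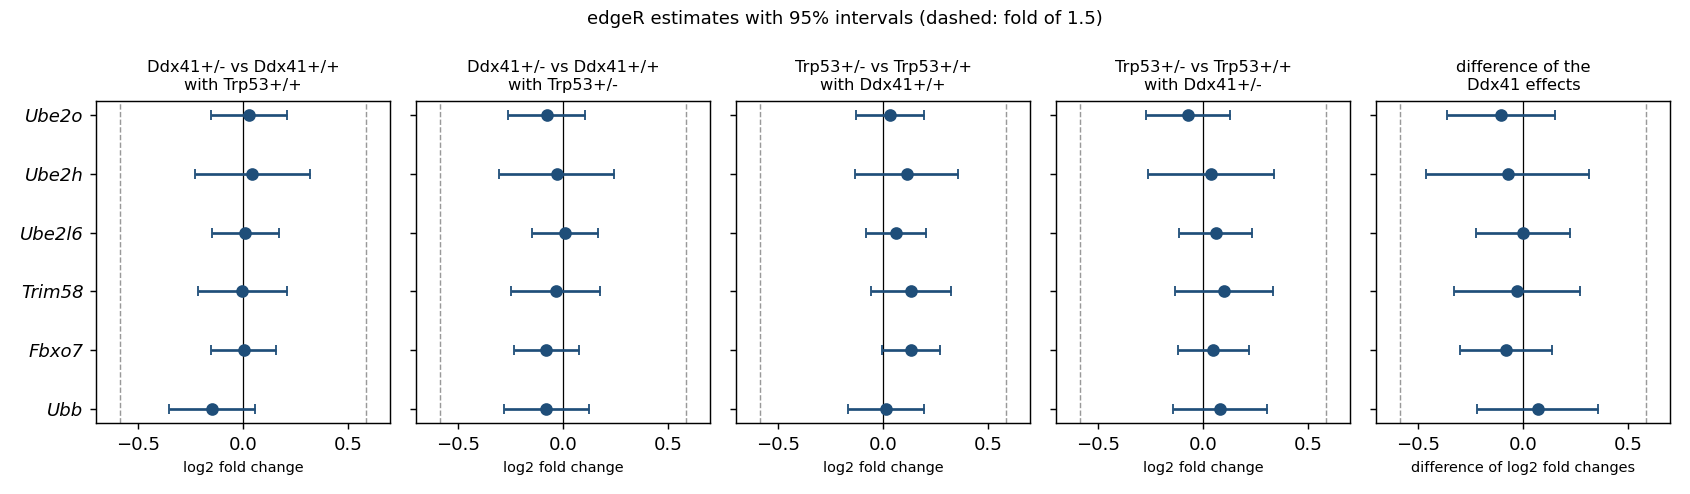
Log2 fold changes of the 6 genes in 4 comparisons and the difference of the Ddx41 effects, as points with 95% intervals from edgeR, and dashed lines at a fold of 1.5. Every interval includes 0 and none reaches a dashed line.

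Between mice, the higher correlations were found among Ube2o, Ube2h, Ube2l6, Trim58 and Ubb, and Fbxo7 had none of them. Among the 10 pairs without Fbxo7, Pearson's r of log2 CPM over the 10 libraries ran from 0.37 to 0.89 with a median of 0.64, and among the 5 pairs with Fbxo7 it ran from -0.10 to 0.15. Ube2o and Ube2h had the highest r, 0.89 (permutation p = 0.00108, adjusted p = 0.0162 over 15 pairs), with Spearman's rho of 0.85 (permutation p = 0.00310, adjusted p = 0.0465). Ube2h and Ube2l6 had an r of 0.85 (permutation p = 0.00748, adjusted p = 0.0561) and a rho of 0.55 (permutation p = 0.105, adjusted p = 0.286). Their r was 0.39 without the 2 mice farthest from the median of Ube2h and 0.53 without replicate 11 of Ddx41+/+ Trp53+/+. As deviations from the genotype means, the 5 pairs with Fbxo7 were all negative, with r from -0.56 (Ube2l6) to -0.32 (Ube2o), and none passed the test (exact permutation p from 0.174 to 0.590, adjusted p from 0.336 to 0.632). Of the 15 pairs, 5 had an unadjusted p under 0.05 and 1 an adjusted p under 0.05.

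The relation of Ube2o and Ube2h rested on the outer mice. Without the 2 mice farthest from the median of Ube2o its r was 0.58. Without replicate 11 of Ddx41+/+ Trp53+/+, r was 0.75, no pair had an adjusted p under 0.05 (smallest exact permutation p, adjusted, 0.325), and the 10 pairs without Fbxo7 had a median r of 0.35, from -0.17 to 0.75. Without replicate 12 of the same genotype the smallest adjusted p was 0.111. Within genotypes, as deviations from the genotype means, r was 0.97 for Ube2o and Ube2h (exact permutation p = 0.0139, adjusted p = 0.104), where the 144 permutations can give no p below 0.00694.

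Replicate 11 had the lowest summed late erythroid markers of the 10 mice, at 81865 CPM, the lowest early erythroid markers, at 22.7 CPM, the lowest B cell markers, at 210 CPM, and the largest total, 20283930 counts. The part of these values in the relation was not tested. Each member's own correlation with the mean of 21 late erythroid markers was positive, with r of 0.58 for Ube2h, 0.52 for Ubb, 0.49 for Ube2l6, 0.39 for Ube2o, 0.34 for Trim58 and 0.19 for Fbxo7. None passed the test (permutation p from 0.0588 to 0.583, adjusted p from 0.288 to 0.583), and rho ran from 0.09 to 0.45 (permutation p from 0.191 to 0.810, adjusted p from 0.642 to 0.810). Without the 2 mice farthest from the median of the marker mean, r ran from -0.10 to 0.35 and was negative for Trim58 (-0.10) and Ubb (-0.08). Within genotypes it was -0.55 for Fbxo7 and 0.15 to 0.62 for the other 5 genes (exact permutation p from 0.139 to 0.521, adjusted p from 0.50 to 0.521).

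**Figure D4:**
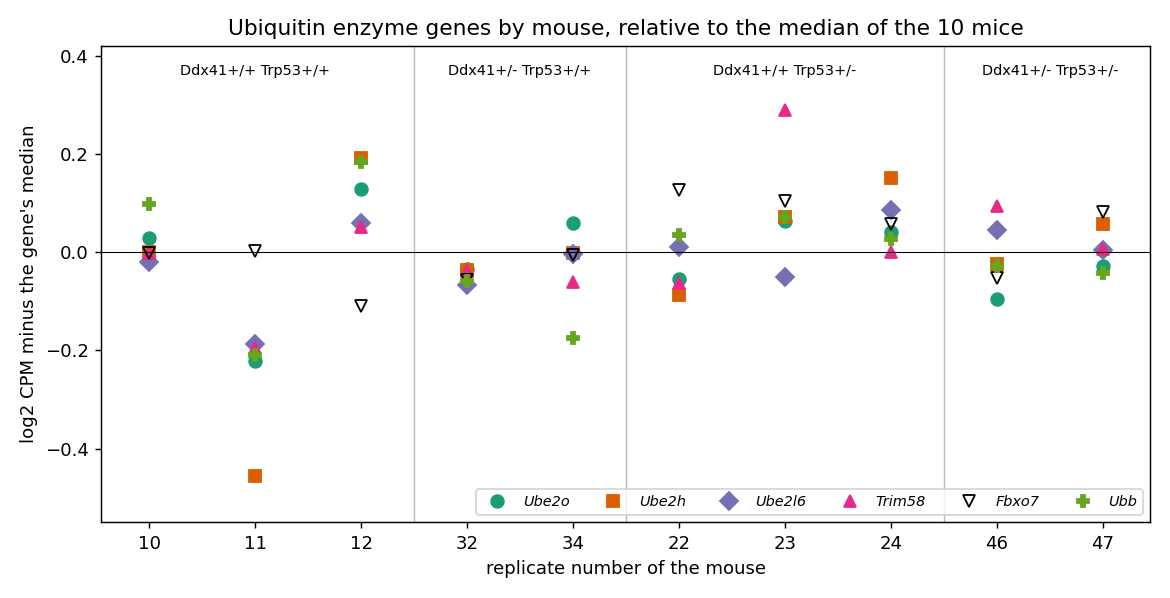
Log2 CPM of each gene in each mouse minus that gene's median over the 10 mice, by replicate number within genotype. In replicate 11 every gene except Fbxo7 (open triangles) lies below its median, and in replicate 12 Fbxo7 is the one gene below its median.

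The genes most like each member over the 10 libraries, by Pearson's r of log2 CPM, included listed late erythroid markers for Ube2o and Ube2h. For Ube2o they were Fam46c (r = 0.91), a member of the late erythroid marker list, Hyal3 (0.91) and Bsdc1 (0.90). For Ube2h they were Fam220a (0.96), Epb4.1 (0.96), which encodes the red cell membrane skeleton protein 4.1, and Pabpc1 (0.95), a poly(A)-binding protein. For Ube2l6 they were Dynll2 (0.93), a dynein light chain, Phldb3 (0.92) and again Fam220a (0.92). For Trim58 they were Zfp217 (0.94), Dhrs11 (0.94) and Sh3bp5l (0.94), for Fbxo7 Slc16a10 (0.94), Ubfd1 (0.93) and the splicing regulator Tra2a (0.92), and for Ubb Irak2 (0.95), Fsd1l (0.93) and Slfn14 (0.92). They were chosen among all tested genes for the size of r and carry no test. The genes most like Ube2o, Ube2h and Ube2l6 kept less of their r without the 2 mice farthest from that member's median, from 0.57 for Pabpc1 with Ube2h to 0.82 for Fam220a with Ube2h, whereas those of Trim58, Fbxo7 and Ubb kept 0.82 to 0.93.

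The partners of the 6 genes were taken from lists of the wider ubiquitin system, 120 genes without the members, of which 114 were tested. Tnfaip3 was the 1 gene among them called in any comparison, and it encodes A20, a ubiquitin-editing enzyme that restrains NF-kB signalling. As 1 of 114 genes it made up 0.877% of the list in each of the 4 comparisons that called it, against 0.54%, 0.912%, 0.329% and 0.439% of all tested genes. It was at 55.2, 51.6 and 45.4 CPM in Ddx41+/+ Trp53+/+, 90.3 and 92.2 CPM in Ddx41+/- Trp53+/+, 63.6, 108 and 82.7 CPM in Ddx41+/+ Trp53+/-, and 119 and 130 CPM in Ddx41+/- Trp53+/-, so every other genotype was above the wild-type mice. It rose with loss of 1 Ddx41 allele with Trp53+/+ (log2 fold change 0.84, SE 0.15, edgeR adjusted p = 0.0149) and with loss of 1 Trp53 allele with Ddx41+/+ (0.75, SE 0.14, edgeR adjusted p = 0.0136). It was not called with loss of 1 Ddx41 allele with Trp53+/- (0.54, edgeR adjusted p = 1.00) or with loss of 1 Trp53 allele with Ddx41+/- (0.45, edgeR adjusted p = 0.799), and the difference of the Ddx41 effects was -0.30 (SE 0.22, edgeR adjusted p = 1.00). With Trp53+/-, the 0.54 (SE 0.15) was under the fold limit, but the Ddx41+/- mice were above the Ddx41+/+ mice without overlap. In that comparison, 20.0% of tested genes did not overlap. The paper's text names Tnfaip3 among the genes that differed in Ddx41+/- R2 cells whatever the Trp53 status. The legend of the figure it cites names Lin-Sca+Kit+ cells instead. Averaged over the other gene's genotypes, Tnfaip3 was called at 0.69 for Ddx41+/- (edgeR adjusted p = 0.00786) and 0.60 for Trp53+/- (edgeR adjusted p = 0.0144).

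The summed B cell markers were higher without overlap in both comparisons of single genotypes that called Tnfaip3. Of single tested genes, 24.9% (Ddx41+/-) and 14.1% (Trp53+/-) did not overlap there. With loss of 1 Ddx41 allele and Trp53+/+, all 9 were positive and 3 called, with a median log2 fold change of 1.04 and summed levels of 357 to 510 CPM against 210 to 354 CPM in the wild-type mice, and the values for loss of 1 Trp53 allele are those given above. With loss of 1 Ddx41 allele and Trp53+/-, Tnfaip3 was at 0.54 and the B cell markers had a median of -0.06, with 3 of 9 positive. With loss of 1 Trp53 allele and Ddx41+/-, Tnfaip3 was at 0.45 and the markers had a median of 0.08, with 6 of 9 positive. No B cell marker was called in either, and the summed levels overlapped. The part of B cells in the Tnfaip3 values was not tested.

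Each call of Tnfaip3 was lost without certain single mice, in some cases with little change in the log2 fold change. For Ddx41+/- with Trp53+/+ it was lost without replicate 32 (log2 fold change 0.85, edgeR adjusted p = 0.126) or 34 (0.83, edgeR adjusted p = 0.204), close to the 0.84 of all mice. For Trp53+/- with Ddx41+/+ it was lost without replicate 24 (0.77, edgeR adjusted p = 0.0520) or 23, where 0.53 was under the fold limit. That call was also lost with the late marker mean as a covariate (edgeR adjusted p = 0.0713) and with only the 2 genotypes fitted (edgeR adjusted p = 0.0533). The averaged Ddx41+/- call was lost without replicate 47 (0.67, edgeR adjusted p = 0.0536). The averaged Trp53+/- call was lost without replicate 12 or 23, where 0.56 and 0.49 were under the fold limit, and without 32, 34, 46 or 47, where it was 0.59, 0.60, 0.62 and 0.56 (edgeR adjusted p = 0.0588 to 0.130). Leaving out replicate 32, 34, 46 or 47 leaves 1 mouse of that genotype, which is then assumed to vary like the other groups.

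For the lists that follow, the background over all tested genes was 0.0422% to 0.912% called in the 7 comparisons, so a count of 0 in lists this small is near the background. None of the 11 tested CTLH subunits, the ligase partner of Ube2h, was called. Gid4, its substrate receptor, was at 38.1 to 46.6 CPM in Ddx41+/+ Trp53+/+, against 49.3 to 58.2 CPM in Ddx41+/+ Trp53+/-. In the Ddx41+/- mice it was at 38.8 and 41.8 CPM with Trp53+/+, against 51.1 and 51.5 CPM with Trp53+/-. Averaged over the Ddx41 genotypes its log2 fold change with Trp53+/- was 0.35 (SE 0.08, edgeR adjusted p = 0.0569), and that of the RING subunit Rmnd5a was 0.21 (adjusted p = 0.220). The averaged value of Gid4 was 0.35 with DESeq2 (adjusted p = 0.00818) and 0.42 with the late marker mean as a covariate (edgeR adjusted p = 0.0293). Without replicate 23 it was 0.34 (edgeR adjusted p = 0.120), and all of these were under the fold limit. Armc8, a scaffold subunit, had a log2 fold change of -0.23 with Ddx41+/- and Trp53+/+ (adjusted p = 0.469).

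In the ISG15 pathway, the partners of Ube2l6, 0 of 6 genes were called. Usp18, which removes ISG15 from proteins, was at 41.1 and 50.7 CPM in Ddx41+/- Trp53+/+ against 24.8 to 32.9 CPM in Ddx41+/+ Trp53+/+, a log2 fold change of 0.66 (SE 0.16, edgeR adjusted p = 0.0720). Isg15 itself had a log2 fold change of -0.23 with Trp53+/- averaged over the Ddx41 genotypes (adjusted p = 0.424), and Uba7, the E1 of ISG15, one of -0.29 with Trp53+/- and Ddx41+/+ (adjusted p = 0.453). Single mice moved both: Isg15 was at -0.14 without replicate 12 and -0.15 without 34, and Uba7 at -0.15 without 12, -0.17 without 24 and -0.46 without 23.

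Among the SCF subunits and other partners of Fbxo7, 0 of 6 were called. The scaffold Cul1 had a log2 fold change of -0.20 with Ddx41+/- and Trp53+/+ (edgeR adjusted p = 0.399), the proteasome regulator Psmf1 one of -0.13 with Ddx41+/- and Trp53+/- (adjusted p = 1.00; -0.08 without replicate 22), and the cell cycle kinase Cdk6, at 1.64 to 3.78 CPM, one of 1.01 with Trp53+/- and Ddx41+/- (adjusted p = 0.776). Among the subunits of dynein and its cofactor dynactin, the target of Trim58, 0 of 10 tested genes were called, and the smallest unadjusted p belonged to Dctn1 (-0.17, adjusted p = 1.00), Dync1li2 (0.21, adjusted p = 0.927) and Dynll1 (0.14, adjusted p = 0.609).

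The other ubiquitin genes and the E1 enzymes gave 0 of 5 calls. Rps27a, which encodes ubiquitin fused to a ribosomal protein, had a median of 338 CPM per kb over the 10 mice, against 152 for Ubb. Rps27a had a log2 fold change of -0.17 with Trp53+/- averaged over the Ddx41 genotypes (edgeR adjusted p = 0.211), and Uba1, the main E1, one of -0.11 with Ddx41+/- averaged over the Trp53 genotypes (adjusted p = 0.563). Among the other E2 genes 0 of 29 tested were called, with log2 values from -0.62 to 0.43 over the 7 comparisons. The smallest unadjusted p belonged to Ube2r2 (0.16, and 0.10 without replicate 11), Ube2t (0.18) and Cdc34 (-0.17). Among 18 other E3 ligases and adaptors none was called, with Siah1a, Cul2 and Ddb1 at log2 values of 0.53, -0.38 and -0.10 in the comparisons where their p was smallest, the first of these being the difference of the Ddx41 effects. The value of Cul2 was -0.68 without replicate 32 and -0.18 without 34. Among 29 deubiquitinases, the enzymes that remove ubiquitin, Tnfaip3 was the one called.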

How the data were processed

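Libraries were made from R2 cells of 10 mice by poly(A) selection and 75-base paired reads. The deposited table, made by the authors, holds unnormalized read counts by gene symbol, and the processing notes name FastQC 0.11.7, HISAT2 2.0.5, featureCounts 1.5.2 and mm10. The annotation, strand setting and treatment of reads with several matches are not given in the sources used here. Groups were taken from the genotype labels. The name given to the deposited counts says that entries were removed, with numbers that are not among the replicates here. The replicate numbers of each genotype share a leading digit. By that digit, the removed entries would fall in Ddx41+/- Trp53+/+ (here 32 and 34) and Ddx41+/- Trp53+/- (here 46 and 47). These are the groups with the fewest mice. Whether the entries were mice of these groups, and why they were removed, is not given in the sources used here. The part of this removal in the Ddx41 comparisons was not tested.

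Testing used edgeR 4.0.16 under R 4.3.3, with filterByExpr by genotype (11846 of 24421 genes kept), TMM scaling and a quasi-likelihood model with 1 mean per genotype over all 10 libraries. The tests were two-sided contrasts with Benjamini-Hochberg adjustment over all tested genes, and a call needed a fold over 1.5 and an adjusted p under 0.05. Standard errors were the absolute log2 fold change over the square root of F, and intervals cover 95%. The model was run on simulated counts as a check of its estimates. The changes set there were larger than those of any member, so that run says nothing about power for changes of that size. CPM used the TMM-scaled totals, and log2 CPM a prior count of 2. CPM per kb used the merged exons of GENCODE M21. Correlations were tested with 100000 permutations, or all permutations with 9 mice or within genotypes, and adjusted over 15 pairs or 6 genes.

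The 6 genes and all lists were chosen with earlier results of these data known. Named beside them are Ddx41, Trp53, for each member the 3 genes with the highest r, and from each ubiquitin list the called genes or else up to 3 with the smallest p; some genes the rule names are not reported here. Alternatives were DESeq2 1.42.0, RLE size factors, no filter, at least 10 counts in every library, globin genes left out, the late erythroid marker mean as a covariate, only the 2 genotypes compared, no limit on the fold, and each mouse left out. For correlations they were deviations from genotype means, RLE, a prior count of 0.5, rho for r, and each mouse left out. No 2 libraries of a genotype agreed within sampling noise (chi-square per degree of freedom 6.24 to 16.0). The labels do not say whether mice were separate cohorts, so p-values measure the spread between these mice. Totals of 7866648 to 20283930 counts gave every member at least 1592 counts per library, without molecular identifiers.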

Additional observations from a re-analysis of the deposited data

How the results depend on the processing

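No member was called under any alternative, including DESeq2 and each mouse left out, and the smallest adjusted p of a member was 0.249. No paired analysis was made, because the sources used here give no pairing of these mice. The replicate numbers follow the genotype, so they do not show whether mice were paired. The alternatives gave 738 member values. Those with no limit on the fold repeat the main estimates and could not change sign. Those with globin genes left out could hardly move, as these genes held 0.000196% to 0.000582% of counts. Of the 738 values, 677 kept their sign and 61, each at most 0.11 in size on the log2 scale, changed it, and the cause was not tested. With the late erythroid mean as covariate these were, for Ddx41+/- against Ddx41+/+, Ube2l6 -0.0064 with Trp53+/+, and Ube2h 0.10 and Ubb 0.0085 with Trp53+/-. For Trp53+/- against Trp53+/+ they were Ube2o -0.0302, Ube2h -0.053 and Ubb -0.10 with Ddx41+/+, and Ube2h -0.00424 and Ubb -0.00480 averaged over Ddx41 genotypes. For the difference of the Ddx41 effects they were Ube2h 0.097 and Ube2l6 0.0596. That difference for Ube2l6 was 0.0019 with RLE or DESeq2, 0.00205 with no filter and 0.0061 with at least 10 counts in every library. For Ddx41+/- against Ddx41+/+ with Trp53+/+, Trim58 was 0.00319 with at least 10 counts in every library and Fbxo7 -3.93e-05 with no filter. Leaving out each mouse in turn gave these ranges where the sign changed. Ddx41+/- against Ddx41+/+ with Trp53+/+ ran from -0.0620 to 0.11 for Ube2o, -0.11 to 0.19 for Ube2h, -0.051 to 0.066 for Ube2l6, -0.069 to 0.046 for Trim58 and -0.032 to 0.028 for Fbxo7. With Trp53+/- it ran from -0.095 to 0.023 for Ube2h, -0.025 to 0.045 for Ube2l6 and -0.10 to 0.0800 for Trim58. Trp53+/- against Trp53+/+ with Ddx41+/+ ran from -0.0622 to 0.11 for Ube2o, -0.051 to 0.26 for Ube2h, -0.00432 to 0.12 for Ube2l6 and -0.096 to 0.093 for Ubb, and with Ddx41+/- from -0.014 to 0.11 for Fbxo7. The difference of the Ddx41 effects ran from -0.22 to 0.093 for Ube2h, -0.0579 to 0.0699 for Ube2l6, -0.099 to 0.083 for Trim58 and -0.014 to 0.18 for Ubb. Averaged over Trp53 genotypes, Ddx41+/- against Ddx41+/+ ran from -0.066 to 0.013 for Ube2o, -0.068 to 0.079 for Ube2h, -0.016 to 0.037 for Ube2l6 and -0.053 to 0.038 for Trim58. Averaged over Ddx41 genotypes, Trp53+/- against Trp53+/+ ran from -0.066 to 0.017 for Ube2o, -0.00434 to 0.15 for Ube2h and -0.00577 to 0.086 for Ubb. The number of member pairs with an adjusted p under 0.05 was 1 of 15, 0 as deviations from genotype means, and 0 to 4 with a mouse left out: 0 without replicate 11 or 12, 2 without 22 or 46, 3 without 23 and 4 without 34. With 2 or 3 mice per genotype, the number of mice limits the precision more than depth.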
